A study of Rattus norvegicus with 112 samples.

Results

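Primary rat cortical neurons were exposed to 2 uM of a compound called 4R for 18 h, 4R was washed out, and RNA was taken 24 h after the washing. The 3 arrays of these cultures (4R washed out, replicates 3, 4 and 5) were set against the 3 untreated arrays labelled CO of the same run, chosen by run and label alone, so that 6 of the 112 arrays of the series entered. The other arrays of the series cover NMDA, nicotine and 4R without washing. The labels describe 4R as an antagonist that blocks nicotinic receptors without competing with acetylcholine, and they give no structure. Control arrays carry time zero, and the labels do not say whether control medium was changed at the washing. Replicates 4 and 5 of each group share a mark in their titles, except for the letters CG on replicate 5, whose meaning is not given. Replicate 3 of 4R carries a different mark. Nothing else says whether replicates came from separate cultures, so p-values measure the spread between these arrays, which may be technical. The arrays set beside them held neurons in 2 uM 4R for 18 h with no washing against CO (3 and 3 arrays). Others held neurons in 10 uM nicotine for 18 h, harvested 24 h after its removal, against control. There were 5 and 5 of these arrays in a first run and again in a repeat run. The nicotine fits also held the arrays of those runs treated with NMDA, alone or with nicotine, which entered the estimate of spread.

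Nicotinic acetylcholine receptors are ligand-gated cation channels, pentamers of alpha and beta chains in neurons and of alpha, beta, gamma, delta and epsilon chains in muscle. An antagonist of this type stops ion flow without occupying the acetylcholine site. In cortex these receptors admit calcium, modulate transmitter release and feed into activity-regulated transcription, so the experiment asks what remains of such a block a day after it ends.

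No gene changed past the threshold. By limma with Benjamini-Hochberg adjustment, 0 of 884 tested probe sets (0%) passed an adjusted p of 0.05, and the smallest adjusted p was 0.999. At an unadjusted p under 0.05 there were 14 (1.58% of those tested), of which 9 were higher and 5 lower with 4R washed out. All 3 4R arrays lay above all 3 CO arrays at 35 probe sets (3.96%), and all below at 14 (1.58%). These shares, and that at an unadjusted p under 0.05, were below what arrays with no difference give on average. Full separation of 3 from 3 arrays has a p of 0.1 by the exact permutation test, so the lack of overlap at a gene is a weak mark. The log2 changes lay between -1.26 and 1.21 with a median of 0.04, and 8 exceeded 1 in size. The median half-width of the 95% interval was 0.70 on the log2 scale. The interval stayed within 1 log2 unit of 0 on both sides at 508 of the 884 probe sets, and at the others it reached a 2-fold change in at least 1 direction, so that 3 arrays a group did not bound the change below 2-fold there. In whole cultures, fewer cells of a type and less RNA per cell cannot be told apart.

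The arrays held neuron markers at high signal, and some glial markers were bright as well. Of 13 neuron markers on the array 12 passed the filter on low signal. Mapt, the microtubule protein tau, averaged 56371 ± 3276 with 4R washed out and 60545 ± 5957 in CO (SD, n = 3 each), and Gap43, a growth cone protein, averaged 35562 ± 2718 with 4R washed out and 32336 ± 9428 in CO. The summed signal of the neuron markers ran from 177860 to 181710 on the 4R arrays, against 156570 to 201580 on the CO arrays. The forebrain kinase gene Camk2a was low, at 261 ± 151 with 4R washed out and 187 ± 130 in CO. The 9 astrocyte markers summed to between 27811 and 34671 on the 4R arrays, against 32297 to 36201 on the CO arrays. The 6 oligodendrocyte markers summed to between 4942 and 13345 on the 4R arrays, against 4413 to 17228 on the CO arrays, and the 3 microglia markers to between 645 and 1505 on the 4R arrays, against 373 to 1042 on the CO arrays. By rank of mean signal over the 6 arrays, neuron markers ran from percentile 21.8 (Camk2a) to 99.5 (Mapt). Astrocyte markers ran from 31.9 (Maob) to 94 (Glul), with Vim at 91.4, and oligodendrocyte markers from 21.1 (Mog) to 80.7 (Pdgfra).

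A pair of array differences lay across the comparison. Replicate 5 of 4R and replicate 5 of CO correlated at 0.961 with each other over the tested probe sets, and at 0.906 to 0.927 with the other 4 arrays. Replicate 3 of 4R had more signal in its weak probe sets: its 30th percentile was 374, against 270 and 280 on the other 4R arrays and 213 to 300 on the CO arrays. In the third of tested probe sets with the lowest mean signal, the median change was 0.16 and 65.4% were higher with 4R washed out. In the third with the highest signal, the median was -0.03 and 41.7% were higher. Without replicate 3 of 4R these medians were 0.00 and -0.01, with 50% and 49.2% higher. The 3′ to 5′ signal ratio of the control transcript for hexokinase, a measure of RNA integrity and labelling, was 1.92 to 2.13 on the 4R arrays, against 2.08, 2.59 and 3.93 on CO replicates 3, 4 and 5, while that for GAPDH lay between 1.45 and 1.62 on all 6.

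**Figure D1:**
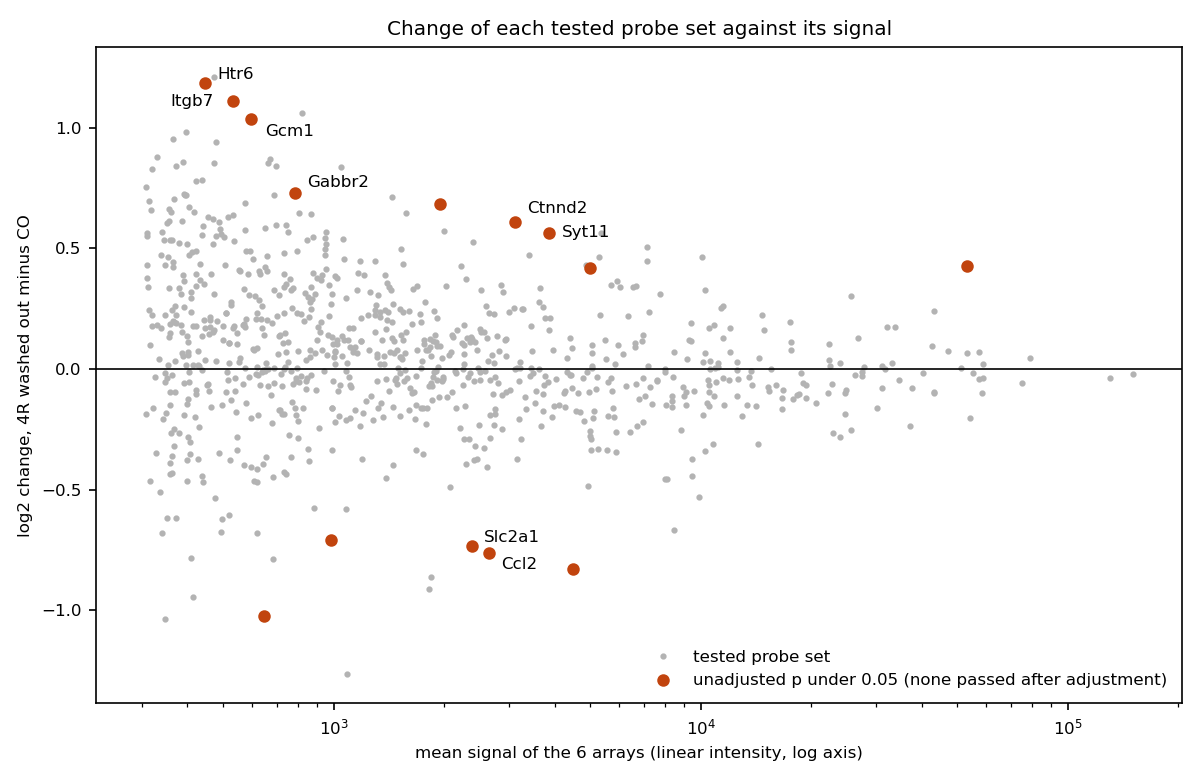
Log2 change of each of the 884 tested probe sets (4R washed out minus CO) against the mean signal of the 6 arrays on a log axis; filled points are the 14 at an unadjusted p under 0.05. Changes spread between -1.26 and 1.21, widest at low signal, where more points lie above 0 than below.

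Among the nicotinic receptor subunits, the receptor family that the labels name for 4R, no change passed. Of the 15 subunit genes on the array 11 were tested, 8 were higher and 3 lower with 4R washed out, and 0 had an unadjusted p under 0.05. Their median change was 0.18, beside 0.04 over all tested probe sets. Most of these subunits lay in the third of tested probe sets with the lowest mean signal, whose median was 0.16, with 65.4% higher. The median of the subunits lay between 0.11 and 0.16 under median centring, quantile normalization, and without replicate 3 of 4R or replicate 5 of both groups. The subunits of heteromeric brain receptors are taken first. Chrna4, the alpha4 subunit of the main high-affinity brain receptor, had 1088, 866 and 549 on the 4R arrays, against 1099, 1351 and 414 on the CO arrays. Chrnb2, its beta2 partner, had 242, 449 and 666 on the 4R arrays, against 366, 139 and 274 on the CO arrays. The groups overlapped at both subunits, and the largest value of each came from a different group. The log2 change was -0.09 for Chrna4 (95% interval -1.08 to 0.90) and 0.61 for Chrnb2 (-0.51 to 1.73), the highest among the subunits with all arrays. Without CO replicate 4 that of Chrnb2 was 0.34.

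Chrna7, which forms homomeric, calcium-permeable receptors, had 494, 632 and 945 at its tested probe set on the 4R arrays, against 899, 175 and 645 on the CO arrays. Both groups held a value under 500 and a value near 900, and the change was 0.40 (95% interval -0.77 to 1.56). Its other probe sets, L31619_g_at and S53987_at, fell below the filter on signal and overlapped between the groups. Chrna3 and Chrnb4, the pair of ganglion-type receptors, were at 0.18 (-1.04 to 1.39) and 0.09 (-0.42 to 0.60). Chrnb4 had 1023, 1180 and 1235 on the 4R arrays, against 1239, 1056 and 926 on the CO arrays, and its second probe set, J05232cds_s_at, was at 0.47. Chrna2 was at 0.53 (-0.79 to 1.86), and its signals of 1079, 607 and 260 on the 4R arrays, against 158, 723 and 379 on the CO arrays, overlapped. It was at 0.09 without CO replicate 3, 0.12 without 4R replicate 3 and 0.98 without 4R replicate 5.

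The subunits of the muscle receptor were measured as well. Chrng, the gamma subunit of the fetal muscle form, had 2465, 2203 and 2212 on the 4R arrays, against 1902, 2429 and 1831 on the CO arrays. Its change of 0.16 had the narrowest interval of the subunits, -0.31 to 0.63. Chrne, the epsilon subunit of the adult form, was at -0.43 (-1.37 to 0.52) with all arrays and at -0.03 without 4R replicate 3. Chrna1, Chrnb1 and Chrnd were at 0.58, -0.07 and 0.47. Each of the 12 tested nicotinic probe sets overlapped between the groups. The smallest unadjusted p by limma among them was 0.168.

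Chrna5, Chrna6, Chrna9 and Chrnb3 lay below the filter on signal and were not tested. Chrna5, an accessory subunit of heteromeric receptors, had 330, 210 and 190 on the 4R arrays, against 67.8, 115 and 70.7 on the CO arrays. The groups did not overlap there, but the mean signal of the 6 arrays was below the filter of 308, and the value is given as a description. The other 3 overlapped.

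**Figure D2:**
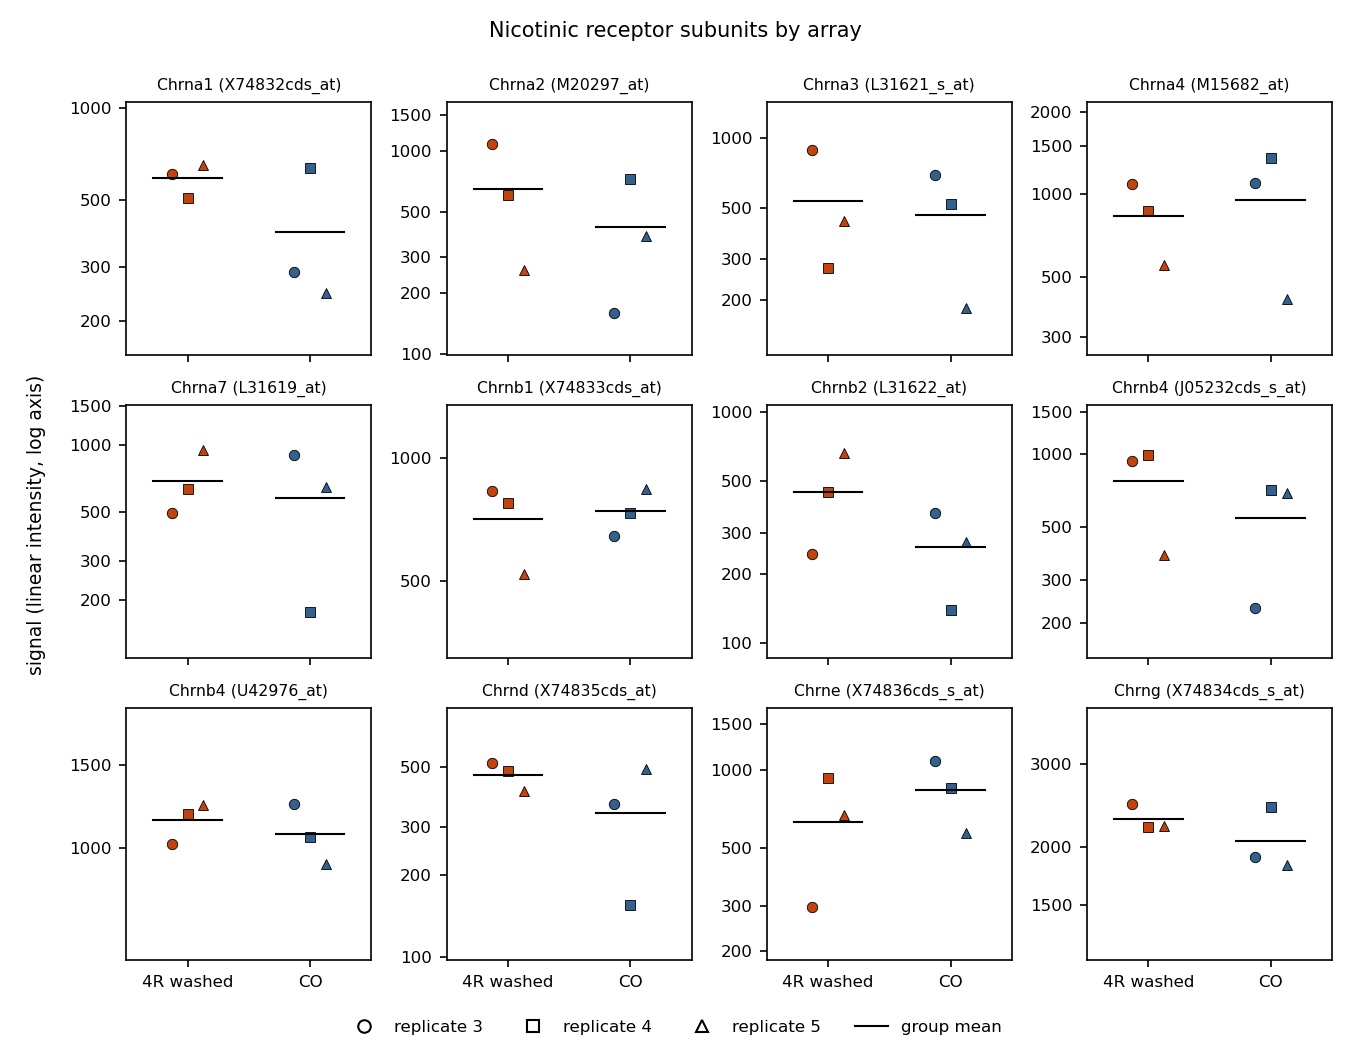
Signal of the 12 tested nicotinic subunit probe sets on each array (log axes), 4R washed out on the left of each panel and CO on the right; marker shapes give the replicate and lines the group means. In each panel the 4R and CO values overlap, for example Chrnb2 at 242 to 666 with 4R washed out and 139 to 366 in CO.

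Muscarinic receptors, the G protein-coupled acetylcholine receptors, and the genes of acetylcholine handling were likewise within the spread. Of 7 such genes on the array 6 were tested, 5 higher and 1 lower, with a median of 0.22 that was -0.03 without replicate 3 of 4R. Chrm2, the Gi-coupled M2 receptor, had 515, 444 and 511 on the 4R arrays, against 313, 454 and 300 on the CO arrays. Only the 454 of CO replicate 4 reached into the 4R values, and the change was 0.40 (-0.37 to 1.16). Chrm3, the Gq-coupled M3 receptor, was at 0.13 (-0.45 to 0.70), Chrm1 at -0.14, Chrm4 at 0.22 and Chrm5 at 0.22. Slc18a3, which loads acetylcholine into vesicles, was at 0.25 and 0.17 at its probe sets. Ache, the enzyme that degrades acetylcholine, lay below the filter, at 255, 59.9 and 152 on the 4R arrays, against 40.1, 69.1 and 122 on the CO arrays.

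The activity-regulated genes, whose transcription follows calcium entry, were next. Of 14 tested, 6 were higher and 8 lower, 0 had an unadjusted p under 0.05, and the median was -0.12, which turned to 0.02 without replicate 3 of 4R. Fos, an immediate early transcription factor, had 4759, 4252 and 3884 at its brightest probe set on the 4R arrays, against 4546, 5366 and 4641 on the CO arrays. The values overlapped, and the change was -0.17 (95% interval -0.60 to 0.26), so a 2-fold change of Fos in either direction lay outside the interval. Egr1, another immediate early factor, had 14638, 16045 and 32194 on the 4R arrays, against 16560, 22019 and 36168 on the CO arrays, with the highest signal in replicate 5 of both groups. Its 4 probe sets were at -0.27, 0.02, -0.11 and 0.09. Junb was at 0.03, Jun at -0.45, Nr4a1, an orphan nuclear receptor, at -0.21, Crem, a cAMP-responsive factor, at 0.46, and Nptx2, a secreted pentraxin of synapses, at -0.07.

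The probe sets of Bdnf, a neurotrophin made from several alternative first exons, went opposite ways. S76799_at had 533, 898 and 657 on the 4R arrays, against 889, 1304 and 1026 on the CO arrays. D10938exon_s_at had 688, 467 and 562 on the 4R arrays, against 295, 192 and 426 on the CO arrays, with no overlap. The first was at -0.58 (-1.21 to 0.05) and the second at 0.78 (-0.08 to 1.64), neither past the threshold. S71201mRNA_at was at 0.52 without overlap and S76758_i_at at -0.37, and the sources used here do not say which transcripts each probe set reads.

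The genes with the smallest p-values are given as values that did not pass. Gcm1, a transcription factor best known from placental trophoblast, had 863, 823 and 801 on the 4R arrays, against 304, 427 and 355 on the CO arrays. Htr6, a Gs-coupled serotonin receptor, had 701, 689 and 551 on the 4R arrays, against 131, 284 and 323 on the CO arrays. The groups stood clear of each other at both genes, with the 4R arrays above. The changes were 1.04 (SE 0.28) for Gcm1 and 1.18 (SE 0.39) for Htr6, and limma gave both an adjusted p of 0.999. Without replicate 5 of both groups they were at 1.03 and 1.41, and without replicate 3 of 4R at 1.02 and 1.15. Both were chosen from these same arrays and had no overlap, so leaving out arrays could not turn their sign and is no independent check.

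Several brighter probe sets of synaptic genes were also higher on all 3 4R arrays, none past the threshold. Ctnnd2, the neuronal delta-catenin of adherens junctions, had 4486, 3346 and 3538 on the 4R arrays, against 2734, 2421 and 2175 on the CO arrays, a change of 0.61 (95% interval 0.13 to 1.09). Syt11, a synaptotagmin of vesicle traffic, had 4981, 4109 and 4776 on the 4R arrays, against 2740, 3487 and 3077 on the CO arrays, a change of 0.56 (0.12 to 1.01). Gabbr2, a subunit of the metabotropic GABA-B receptor, had 1069, 752 and 1180 at AF074482_s_at on the 4R arrays, against 718, 512 and 472 on the CO arrays, a change of 0.73 (0.08 to 1.38). At these 3 probe sets the lowest 4R array stood above the highest CO array, by the least at that of Gabbr2. The brightest Gabbr2 probe set, AF058795_at, had 10305, 11261 and 8533 on the 4R arrays, against 8772, 9972 and 7568 on the CO arrays. The groups overlapped there, at 0.19 (-0.25 to 0.64), and also at AF109405_s_at, at 0.39. Without replicate 5 of both groups AF074482_s_at was at 0.49. Atp1b2, the beta2 subunit of the sodium pump, was higher at both of its probe sets, by 0.42 and 0.68, the second with overlap. Grin1, the obligatory NMDA receptor subunit, had 2515, 2427 and 2186 on the 4R arrays, against 2208, 1358 and 1276 on the CO arrays, at 0.57 with CO replicate 3 inside the 4R range, and its other probe set, U11418_s_at, was at 0.37. Itgb7, a leukocyte integrin chain, was at 1.11 at S44606_s_at, without overlap, and at -0.36 (-1.45 to 0.72) at AF003598_at, with overlap. Without CO replicate 5 the first was at 0.67. The probe set rc_AA963674_at was at 0.43, and at 0.25 without replicate 5 of both groups, where the annotation gives Eef2 for this probe set and Map2k2 for its sister rc_AA963674_g_at, so its gene is unsure.

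Among the lower values, Ccl2, a chemokine that attracts monocytes, had at X17053mRNA_s_at 2062, 1520 and 2176 on the 4R arrays, against 2300, 4368 and 3492 on the CO arrays. Slc2a1, the glucose transporter GLUT1 of the blood-brain barrier, had 2438, 1955 and 1051 on the 4R arrays, against 2492, 3498 and 2828 on the CO arrays. All 4R values lay below all CO values at both genes, by the least at Slc2a1, where the replicate 3 arrays of 4R and CO nearly met. Ccl2 was at -0.76 (SE 0.28) and Slc2a1 at -0.73 (SE 0.32), with an adjusted p of 0.999 by limma. Without replicate 5 of both groups Slc2a1 was at -0.42 and Ccl2 at -0.81. The other Ccl2 probe set, X17053cds_s_at, overlapped between the groups, at -0.39 (-1.07 to 0.28). Mmd, a membrane protein named for macrophage differentiation, was at -0.86 with all arrays and at -0.21 without replicate 5 of both groups, since its replicate 5 values were 663 for 4R and 3256 for CO. Kcnj4, an inward-rectifier potassium channel, was at -0.94 at X87635_at, with overlap, and at -0.54 without replicate 5 of both groups, while its other probe set, X83580cds_s_at, was at 0.17. Dlgap4, a postsynaptic scaffold protein, was at -0.79 at U67140_g_at and -0.29 at U67140_at, and the first was at -0.44 without 4R replicate 4 or without CO replicate 5. The unnamed probe sets AJ012603UTR#1_g_at, AF030089UTR#1_at, AF028784cds#1_s_at and AF028784mRNA#1_s_at were at -0.71, -0.83, -1.02 and -0.48. Of these AF028784cds#1_s_at was at -0.60 without 4R replicate 3 and -1.54 without replicate 5 of both groups. Of the 8 changes over 1 in size, that of Pde4c, a cAMP phosphodiesterase, was -1.26, on 4R signals of 1861, 319 and 146 against CO signals of 983, 2317 and 907. Gal, the galanin precursor, was at -1.04, where CO replicate 4 alone reached 1297 and the 5 other arrays lay between 76.9 and 304.

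The remaining transmitter systems are described by their lists, each gene standing by its brightest probe set. Over all tested probe sets the median was 0.04, and 499 of 884 were higher. The NMDA receptor subunits had a median of 0.25 (5 of 6 higher), the AMPA and kainate subunits 0.17 (6 of 8) and the metabotropic glutamate receptors -0.05 (2 of 6). The GABA and glycine receptors had a median of 0.24, with 10 of 14 higher. Of these 14, 2 had all 4R arrays above all CO arrays and 1 had all below, beside 3.96% and 1.58% of all tested probe sets. These counts were not tested against those shares. Gabra2, the alpha2 subunit of the GABA-A receptor, had 2091, 1594 and 1723 on the 4R arrays, against 1037, 1341 and 1384 on the CO arrays, at 0.50 (-0.01 to 1.01). Glra1, the alpha1 glycine receptor subunit, had 528, 531 and 599 on the 4R arrays, against 202, 293 and 381 on the CO arrays, at 0.78 (-0.03 to 1.59). Both stood without overlap, and neither passed. The monoamine receptors, transporters and enzymes had a median of 0.16 (17 of 24 higher), from Slc6a4, the serotonin transporter, at -0.68 to Htr6 at 1.18.

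Of 24 tested synaptic vesicle and release genes 18 were higher, with a median of 0.19, and 3 had all 4R arrays above all CO arrays, a count that was not tested against the 3.96% over all. These were Syt11, Syn1 and Rab3a. Syn1, the vesicle phosphoprotein synapsin I, had 8973, 9322 and 7537 on the 4R arrays, against 7197, 7078 and 6416 on the CO arrays. Rab3a, a vesicle GTPase, had 12316, 10889 and 11535 on the 4R arrays, against 10876, 9384 and 10310 on the CO arrays. The gaps were small beside the levels, with changes of 0.31 (-0.09 to 0.72) and 0.18 (-0.19 to 0.56). Syt7, the list's highest change, was at 0.98 (-0.07 to 2.03). Under median centring and quantile normalization the list's median was 0.12 and 0.17, and those of the NMDA and GABA lists stayed above 0.15.

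Stress genes had a median of -0.10 (2 of 10 higher), neuropeptides and granins -0.12 (4 of 11), and the postsynaptic scaffold and calcium signalling genes -0.06 (6 of 16). Neurotrophic factors and receptors were at 0.05, with Fgf2, a growth factor of neurons and glia, at 0.94 at one probe set and 0.06 at the other. Cell death genes were at 0.06, sodium and calcium channels at 0.10, potassium channels at 0.04, cytoskeleton genes at 0.01, glucose transport and energy enzymes at 0.01, inflammation genes at 0.12 and amino acid transmitter transport and enzymes at -0.04. The marker lists of neurons, astrocytes, oligodendrocytes and endothelial or meningeal cells had medians of 0.04, 0.05, 0.08 and 0.04, and the 2 tested microglia markers were at 0.65 for Itgam and 0.95 for Il1b. Of 25 lists with a tested member, the median turned sign in 8 under median centring and in 10 without replicate 3 of 4R. No list held a gene past the threshold.

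**Figure D3:**
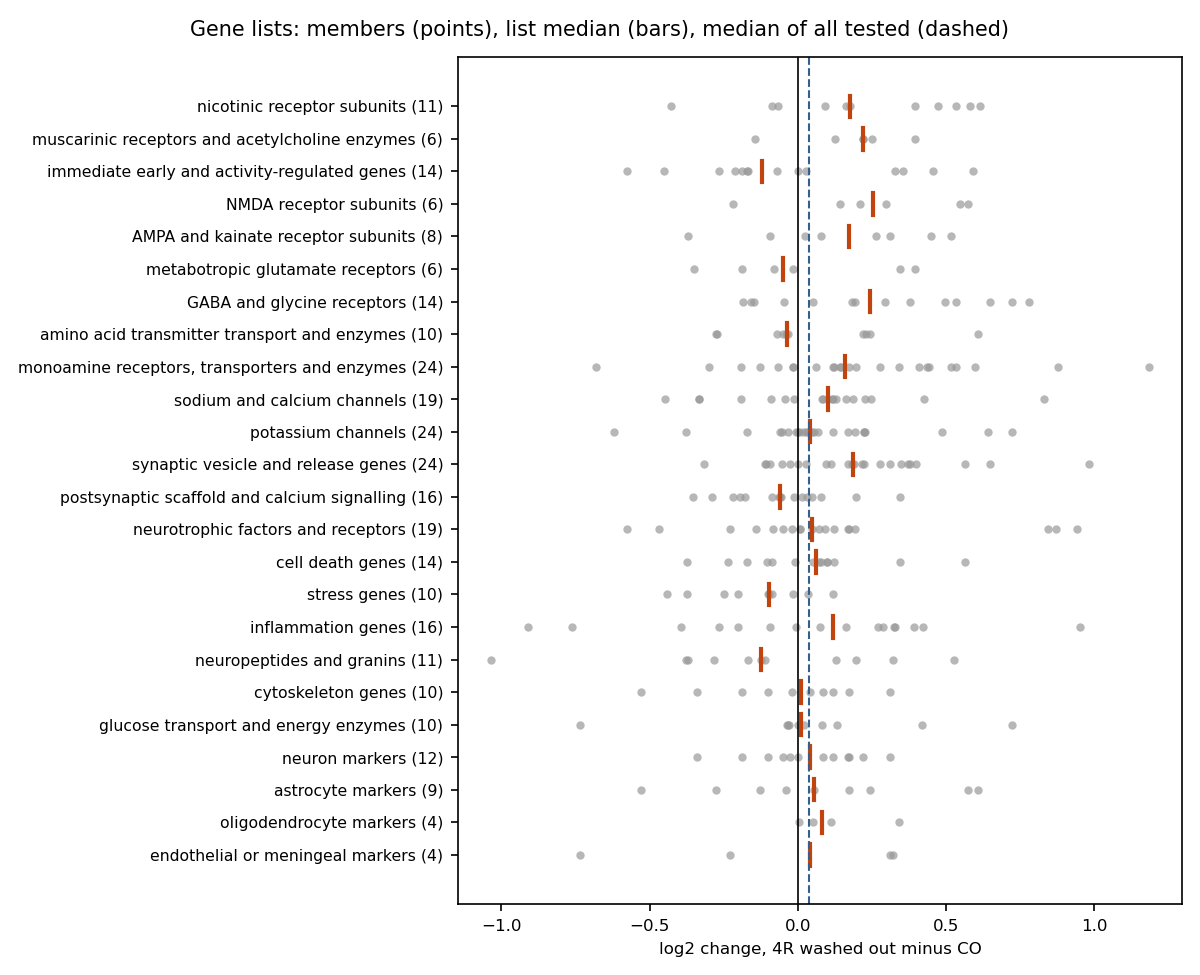
Log2 change (4R washed out minus CO) of the tested members of each list with over 3 of them (points, number in brackets), the list median (bar) and the median of all 884 probe sets (dashed line, 0.04). List medians lie between -0.12 and 0.25, and the members of each list spread on both sides of its median.

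The nearest experiment was 4R for 18 h with no washing, in its own run. There too 0 of 884 probe sets (0%) passed by limma, and 20 (2.26%) had an unadjusted p under 0.05. The same-numbered arrays of that run deviated together. With the replicate number as a block 0 passed by limma, with a smallest adjusted p of 0.0747. In that fit 70 (7.92%) had an unadjusted p under 0.05, a share above what arrays with no difference give on average. Of the 14 probe sets with an unadjusted p under 0.05 after washing, 13 were also tested at 18 h, and 6 of these had the same sign. Across the 838 probe sets tested in both runs, the correlation of the changes was 0.02 (Pearson) and -0.06 (Spearman), a description over probe sets that share their arrays.

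The difference between the washed-out and the 18 h change was tested over those 838 probe sets. By limma 0 passed (0%), 20 (2.39%) had an unadjusted p under 0.05, and the smallest adjusted p was 0.998. With the replicate number as a block 0 passed, and the smallest adjusted p by limma was 0.645. In that fit 56 (6.68%) had an unadjusted p under 0.05, again above what arrays with no difference give on average. The genes named next were chosen for a small p after washing or in this difference. Intervals that left out 0 followed in part from that choice. Changes and intervals here and in the next paragraph came from fits with group as the only term. Ctnnd2 had 6985, 6309 and 7250 on the 18 h 4R arrays, against 8150, 6828 and 6317 on the 18 h CO arrays, a change of -0.05. The 18 h groups overlapped there, and the washed-out minus 18 h difference was 0.66 (95% interval 0.13 to 1.18). That for Htr6 was 1.42 (0.08 to 2.76). For Gabbr2 it was 0.83 (0.12 to 1.53) at AF074482_s_at and 0.17 (-0.32 to 0.65) at the brightest probe set. For Kcnj4 it was -1.28 (-2.24 to -0.32) at X87635_at and 0.18 (-0.75 to 1.11) at the other probe set. Other small p-values belonged to Fgfr4, a fibroblast growth factor receptor, at 0.80, Nrxn2, a presynaptic adhesion protein, at 0.59, Thra, a thyroid hormone receptor, at -0.67, Kcnh2, a potassium channel, at -1.11, and the unnamed AJ012603UTR#1_g_at and X13058_at at -0.97 and -0.70. Each of these 4 named genes had at least 1 other probe set whose interval held 0, for example -0.21 to 0.82 at U75210_s_at of Kcnh2 and -0.61 to 0.21 at M31174_at, the brightest of Thra. None of these differences passed, with adjusted p of 0.998 by limma.

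The next genes were chosen for a small p at 18 h, and their values are a description. Mog, a myelin protein, was at 1.46 at 18 h and lay below the filter after washing, at 260 ± 110 with 4R washed out and 171 ± 66 in CO (SD, n = 3 each). Gdnf, a neurotrophic factor, was at 0.84 washed out, with signals of 1246, 638 and 599 on the 4R arrays against 137, 1291 and 284 on the CO arrays, and at 1.63 at 18 h. Pja2, a ubiquitin ligase, was at 0.12 washed out and -0.87 at 18 h at rc_AA894089_s_at, and Gnb1, a G protein beta subunit, at -0.05 washed out and -0.77 at 18 h at rc_AI230404_s_at. Gap43 was at 0.17 washed out and -0.35 at 18 h. The interval of the washed-out minus 18 h difference held 0 for Gdnf (-2.52 to 0.94), Gnb1 (-0.24 to 1.67) and Gap43 (-0.04 to 1.09), and not for Pja2 (0.01 to 1.97), whose brightest probe set, D32249_s_at, was at -0.25 (-0.72 to 0.22). For the nicotinic subunits the difference lay between -0.55 (Chrne) and 0.90 (Chrna7) over the tested genes, and each interval held 0, for example -0.46 to 0.62 for Chrng and -0.78 to 2.57 for Chrna7.

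**Figure D4:**
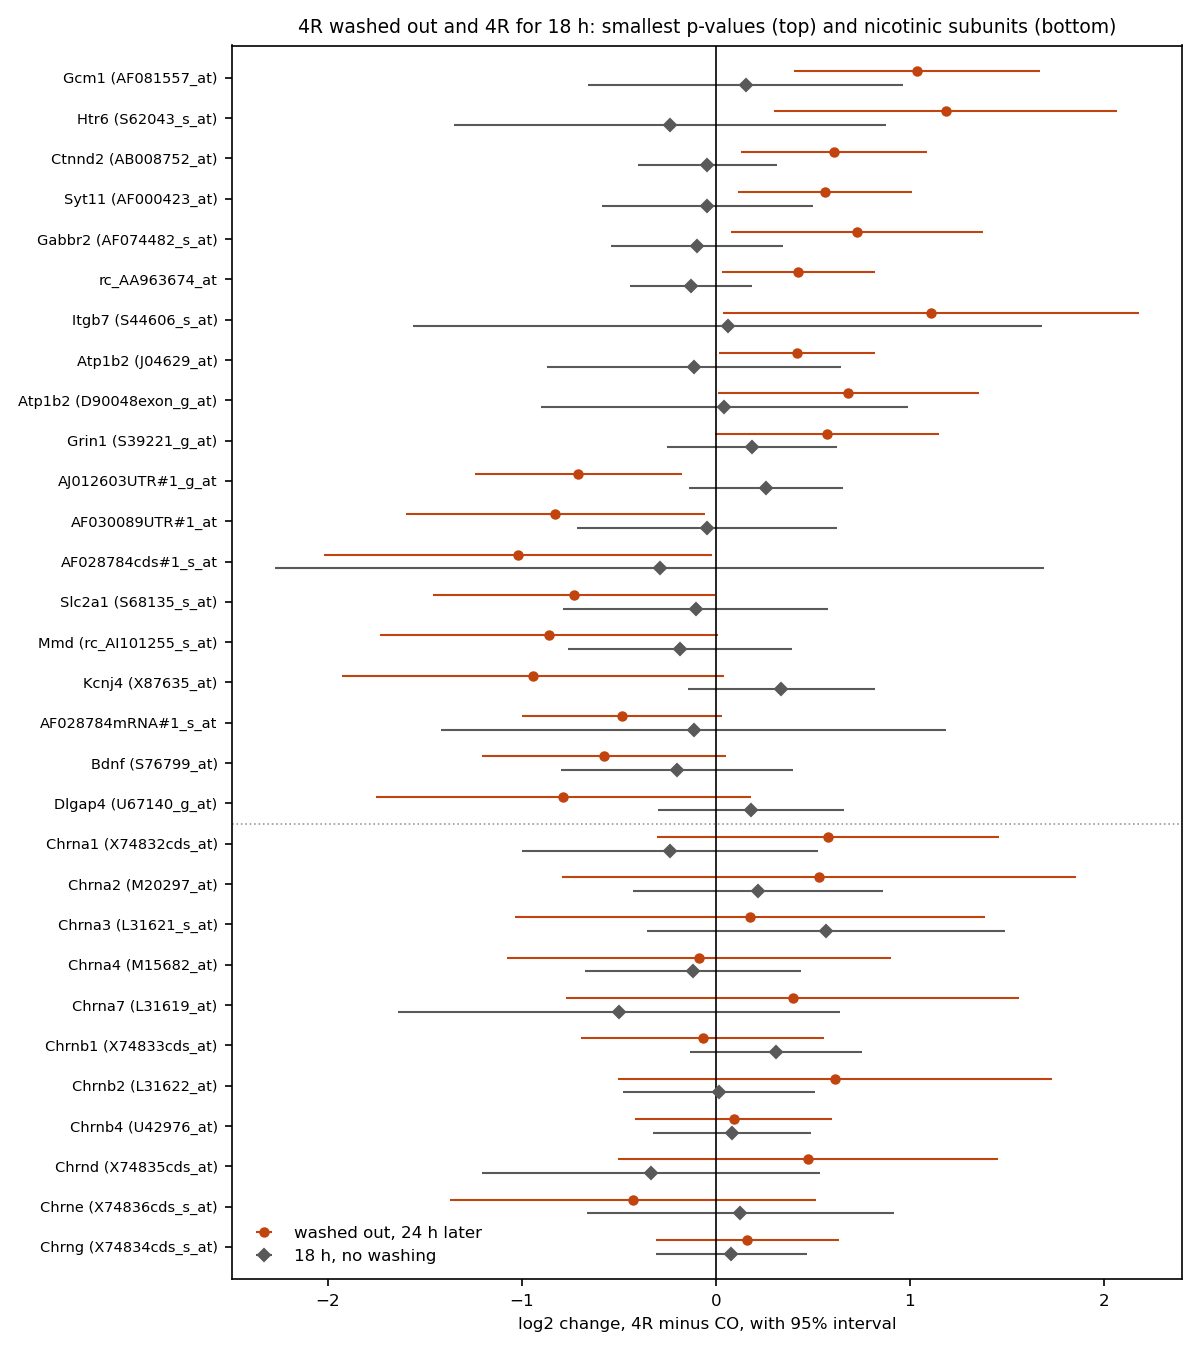
Log2 change with its 95% interval for 4R washed out (circles) and 4R for 18 h without washing (diamonds), each against its own CO arrays, for the probe sets with the smallest p after washing that were tested in both runs (above the dotted line) and the 11 tested nicotinic subunits (below it). The upper probe sets were chosen for their p after washing, and at 18 h each of their intervals held 0 in the fit with group as the only term.

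Nicotine removed 24 h before harvest differs from 4R in agent and dose, so its values stand beside those of 4R without a comparison. In the repeat run of that experiment 0 of 884 probe sets (0%) passed by limma and 187 had an unadjusted p under 0.05, and in its first run 3 passed. Chrnb2 was at 0.61 for 4R washed out, and at -0.04 (repeat run) and -0.44 (first run) for nicotine washed out. Chrna7 was at 0.40 for 4R, and at 0.14 and 0.82 for nicotine. The repeat-run values of Chrnb2 and Chrna7 rest in part on control replicate 3 of that run, which stood far above the other controls at both. Chrna2 was at 0.53 for 4R, and at -1.40 and 0.45 for nicotine, so that the runs of nicotine did not share a sign.

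A pattern shared by 4R and CO arrays belonged to replicate 5, whose titles carry the letters CG in both groups. Replicate 5 of both groups lay above the 4 other arrays at 124 of 884 probe sets (14%) and below them at 131 (14.8%). The genes named here were chosen by the size of that gap, after their values were seen, and carry no test. Sst, the precursor of the interneuron peptide somatostatin, had 5939, 4782 and 306 in replicates 3, 4 and 5 of 4R, against 6343, 4064 and 622 in those of CO. Mt1, the metal-binding metallothionein 1, had 59494, 83261 and 13275 on the 4R arrays, against 68722, 95423 and 10396 on the CO arrays. Both genes were several times lower in replicate 5 of both groups, and their changes with 4R washed out were -0.24 and -0.02. The intervals were among the wide ones, -2.83 to 2.36 for Sst and -2.10 to 2.06 for Mt1.

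The promoters of this pair are shown because both genes were low in replicate 5 of both groups and carry well-known elements. The sequences are RefSeq's on build GRCr8, each 250 bases before to 50 after the annotated start, in lower case with the searched element in capitals. In Sst (chr11:90461296-90461595, + strand) the capitals mark the cAMP response element TGACGTCA. In Mt1 (chr19:10832926-10833225, - strand) they mark the metal response element TGCACNC or TGCGCNC, searched on both strands.
Sst: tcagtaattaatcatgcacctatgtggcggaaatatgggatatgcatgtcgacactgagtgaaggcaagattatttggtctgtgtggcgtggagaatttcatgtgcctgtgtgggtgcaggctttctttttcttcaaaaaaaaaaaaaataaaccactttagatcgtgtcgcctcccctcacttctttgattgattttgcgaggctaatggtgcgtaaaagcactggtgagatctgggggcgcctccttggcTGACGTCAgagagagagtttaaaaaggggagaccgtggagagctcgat
Mt1: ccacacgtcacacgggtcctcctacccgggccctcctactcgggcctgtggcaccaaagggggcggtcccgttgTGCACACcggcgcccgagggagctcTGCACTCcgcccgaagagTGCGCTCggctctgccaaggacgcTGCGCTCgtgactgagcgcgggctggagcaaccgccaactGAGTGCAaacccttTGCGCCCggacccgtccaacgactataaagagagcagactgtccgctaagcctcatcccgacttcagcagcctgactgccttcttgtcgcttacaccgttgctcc
The cAMP element occurred 1 time in the Sst window, 2 bases after the annotated start, and occurred in 612 of 33469 promoter windows (1.83%). The metal element occurred 6 times in the Mt1 window, between 176 and 55 bases before the start. At least 1 match was found in 8110 windows (24.2%), and 6 or more in 13 (0.0388%). The Sst window also held 1 match to the metal element, not marked. A match is a run of letters and not a shown site of binding.

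Replicate 5 was also low for other genes. Hmox1, the inducible haem oxygenase, had 15460, 29656 and 4241 on the 4R arrays, against 18037, 27541 and 5036 on the CO arrays. Gad1, a GABA-synthesizing enzyme, had 5266, 3701 and 812 on the 4R arrays, against 5156, 3138 and 1108 on the CO arrays. Fosl1, a Fos-related factor, had 3087, 3750 and 967 on the 4R arrays, against 3700, 3889 and 1171 on the CO arrays. In each the replicate 5 arrays of 4R and CO were within 1.5-fold of each other and well below the rest. Nxph1, a secreted neurexin ligand, Hspb1, a small heat shock protein, and S100b, a calcium-binding protein of astrocytes, followed the same order. By list, 4 of 10 stress genes (Hspa1a, Hspb1, Hmox1 and Mt1) lay below in replicate 5, beside 14.8% of all tested, as did 3 of 4 oligodendrocyte markers, Mbp, Mag and Pdgfra. Mbp, the myelin basic protein, had 2976, 574 and 95.2 on the 4R arrays, against 4627, 125 and 93.9 on the CO arrays. There CO replicate 4 was nearly as low as replicate 5, and these low values were near the 88.1 added before log2.

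Replicate 5 was the highest for other genes, among them 5 of 10 cytoskeleton genes. Fgfr1, a fibroblast growth factor receptor, had 3307, 3260 and 13786 on the 4R arrays, against 3564, 6079 and 17963 on the CO arrays. Tac1, the precursor of substance P, had at M15191_s_at 1906, 1726 and 4505 on the 4R arrays, against 1890, 2888 and 6026 on the CO arrays. Nefm, a neurofilament protein, had 3067, 3950 and 8436 on the 4R arrays, against 3524, 5536 and 10791 on the CO arrays. Replicate 5 was highest in both groups at each, and CO replicate 5 was above 4R replicate 5. The cytoskeleton genes were Tubb5, Map2, Nefl, Nefm and Vim, beside 14% of all tested. Of 19 neurotrophic factors and receptors 1 lay above in replicate 5 (Fgfr1) and 4 below (Ntf4, Cntfr, Tgfa and Pdgfb). Tfrc, the transferrin receptor, Pak1, a cytoskeletal kinase, Kit, a receptor tyrosine kinase, and Egr1 were also higher there. Without replicate 5 of both groups, 0 probe sets passed for 4R washed out by limma, and 18 had an unadjusted p under 0.05.

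**Figure D5:**
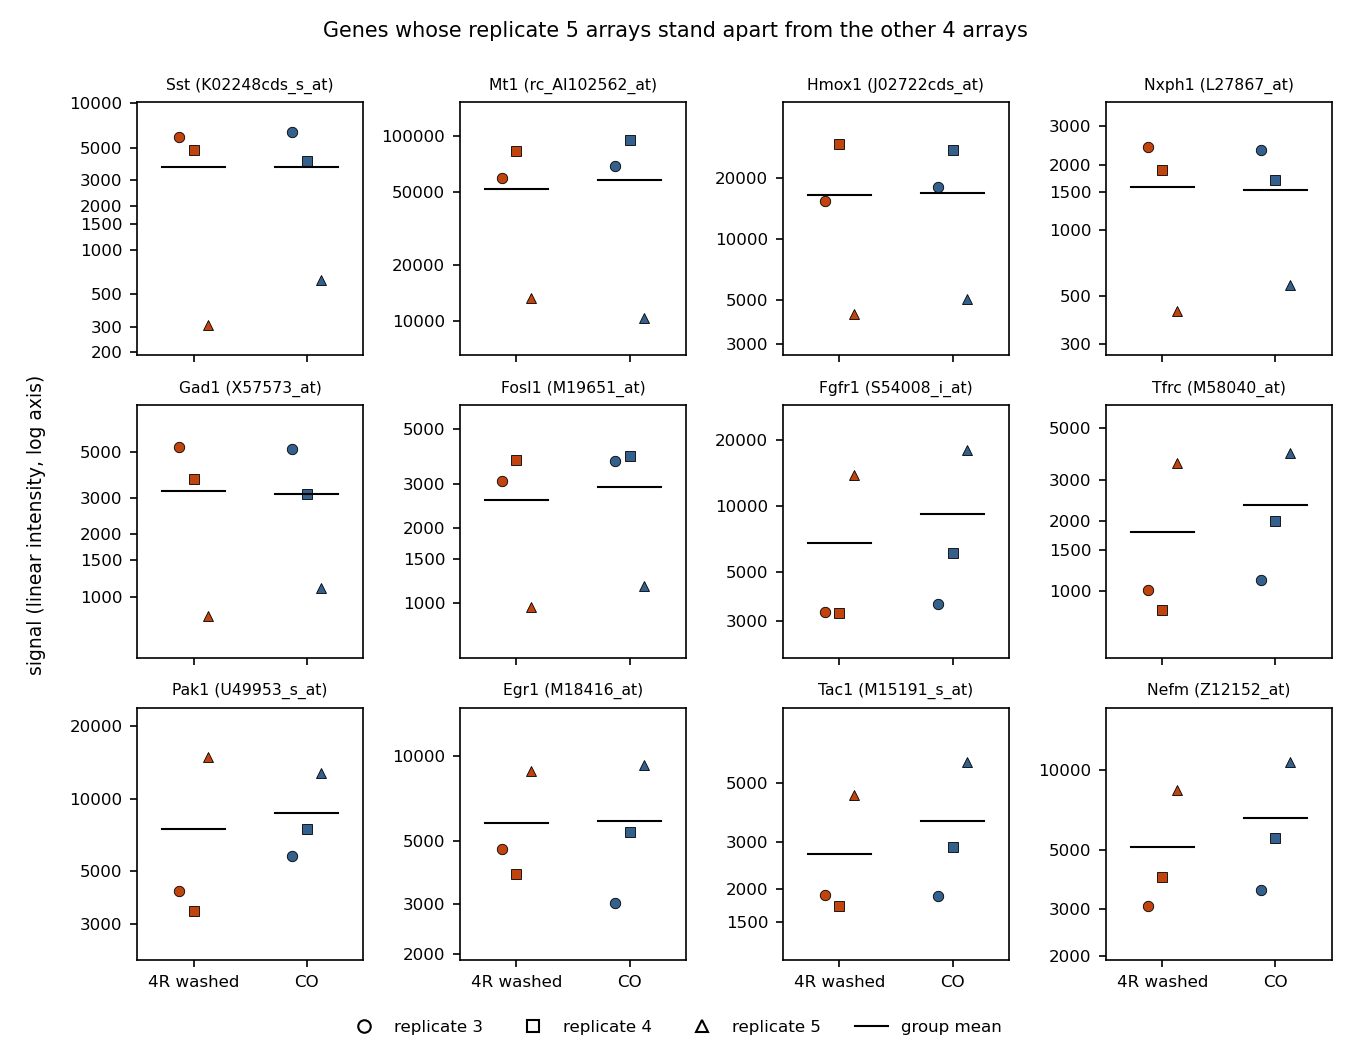
Signal by array (log axes) of 12 genes chosen for the gap between replicate 5 of both groups and the 4 other arrays, 4R washed out on the left of each panel and CO on the right. Triangles (replicate 5) stand low for Sst, Mt1, Hmox1, Nxph1, Gad1 and Fosl1 and high for the others, in 4R and CO alike.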

How the data were processed

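RNA from primary rat cortical neurons was measured on arrays of 1322 probe sets, 59 of them controls that were left out. The probe annotation gave 1 gene for 1137 of the other 1263, several for 8 and none for 118. The authors deposited linear intensity values, already scaled: after trimming 2% at either end, every array had a mean of 2503 to 2513. The sources used here do not name the software that made them. Signals were turned into log2 after adding the 10th percentile of the run (88.1 in the washed-out run, 63.1 in the 18 h run), so the changes of weak probe sets are understated. Probe sets under the 30th percentile of the run mean were left out, which left 884, and the precision is limited by the number of arrays. Changes came from limma 3.58.1 (R 4.3.3), with an intensity trend, group as the only term and Benjamini-Hochberg adjustment, 2-sided, at 0.05. The difference between the 4R experiments was fitted over both runs. The nicotine groups were fitted with all groups of their run.

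The fit was run on simulated data with independent noise of a fixed size and changes added to brighter probe sets. That noise held no replicate pattern, so the run does not measure the power on these arrays. Same-numbered 4R and CO arrays were held to be pairs where every correlation of their deviations exceeded 0.1. This held in the 18 h run (0.49, 0.46 and 0.53), whose replicates carry numbers in the labels, and not in the washed-out run. The 18 h changes, intervals and p-values, and those of the difference, still came from fits with group as the only term. For the fits with the replicate block, counts and the smallest adjusted p are given. CO replicate 5 was numbered by the title mark it shares with 4R replicate 5.

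Named are the 10 probe sets in each direction with the smallest p where fewer passed, every nicotinic and muscarinic gene, list extremes, and the 5 differences in each direction with the smallest p. The arrays, the 26 gene lists (proliferation genes had no probe set) and the tests were chosen with earlier results of these data known. Alternatives were the offset at the 2nd and 25th percentile, the filter, scaling, the trend, the replicate block, each array left out, both 4R runs fitted together, and the exact permutation test.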

Additional observations from a re-analysis of the deposited data

Results flagged for a closer look

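In the repeat run of the washed-out nicotine experiment, control replicate 3 stood far above the 4 other control arrays at 4 of the nicotinic subunits. It had 2762 for Chrna7, where the others lay between 119 and 394, and 4302 for Chrnb1, where they lay between 353 and 861. It had 4630 for Chrnb2 (others 41.8 to 664) and 7129 for Chrng (others 574 to 2447). Such a gap is met by chance in about 1 of 20 groups of 5, and 16 were checked. Nicotine values of these subunits rest on that control array, and its part in them was not tested. Groups of 3 arrays, which include both 4R experiments, were not checked in this way.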

How the results depend on the processing

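For 4R washed out, 4R for 18 h and their difference, 0 probe sets passed under every alternative run by limma. For 4R washed out the count at an unadjusted p under 0.05 was 10 to 33, and 33 with the replicate block (smallest adjusted p 0.848), 31 with no filter, 25 with both 4R runs fitted together and 24 without CO replicate 3. For 4R at 18 h it was 40 with no filter, 13 with the filter at the median and 70 with the block. For the difference it was 32 with no filter, 56 with the block, and 13 under median centring or without CO replicate 1 of the 18 h run. For nicotine washed out the count past the threshold was 3 in the first run and 0 in the repeat run; the cause was not tested.

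The correlation of deviations of same-numbered arrays after washing was 0.23, 0.03 and 0.53 for replicates 3, 4 and 5, and 4 of the 6 arrays correlated best with their own number, so the numbers are not taken as pairs there. The block changed no call.

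Among 513 alternative values of the 31 named log2 changes 12 changed sign, all of nicotinic subunits that never passed. The 20 other named changes were chosen for a small p in these arrays, so their kept sign is no support for them. With 1 array left out in turn the range was -0.27 to 0.51 for Chrna3, -0.54 to 0.21 for Chrna4, -0.17 to 0.78 for Chrna7, -0.18 to 0.11 for Chrnb1 and -0.0019 to 0.19 for Chrnb4. For the subunits that kept their sign it was 0.36 to 0.93 for Chrna1, 0.09 to 0.98 for Chrna2, 0.34 to 0.95 for Chrnb2, 0.11 to 0.73 for Chrnd, -0.73 to -0.03 for Chrne and 0.09 to 0.28 for Chrng. Without replicate 5 of both groups, an alternative chosen after seeing the data, Chrna3 was at -0.20, Chrnb1 at 0.20 and Chrnb4 at -0.053. No exact permutation test of 3 against 3 arrays can give a p below 0.1. The number of arrays and the signal over background of weak probe sets limit these values.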
